A study of Mus musculus with 6 samples.

Results

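The Nr4a and Egr families and the short genes Ier2 and Ier5 are early response genes, and 9 of them were followed here in the injured mouse spinal cord: Nr4a1, Nr4a2, Nr4a3, Egr1, Egr2, Egr3, Egr4, Ier2 and Ier5. They were taken by symbol from the 54532 genes of the deposited count table. RNA was taken from the cord of C57BL/6J mice, all of which, in both groups, had an injury of the spinal cord (SCI). The trained group was exercised on the rotarod, a turning rod on which a mouse has to keep its footing, and the untrained group was not. Each group has 3 libraries (SCIT and SCI, replicates 1 to 3), and all 6 are labelled day 28 after training. The sources used here do not give the level and kind of injury, the age of the mice or the time between the last run and tissue collection. They do not say whether each library is a separate mouse either, so the p-values measure the spread between these libraries, which may be technical.

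Early response genes are transcribed within minutes of a stimulus, from factors already present in the cell, and their mRNAs are short-lived. The Nr4a proteins are orphan nuclear receptors that bind DNA without a known hormone, and the Egr proteins are zinc-finger transcription factors that bind GC-rich sites. In nervous tissue both families respond to synaptic activity, growth factors and injury, and they are also induced in endothelial cells, microglia and macrophages. Ier2 and Ier5 encode related nuclear proteins without a classical DNA-binding domain.

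The promoters of the Nr4a genes are shown because the cyclic AMP response element, through which the factor CREB acts on early genes, can be read in them directly. RefSeq promoters on GRCm38.p6 were read for 6 of the 9 members only (Nr4a1, Nr4a2, Nr4a3, Egr2, Egr4 and Ier5). Capitals mark the core TGACG of that element on either strand, so that CGTCA is the same core on the opposite strand. The stretches run 5′ to 3′ on the strand of the gene and end at the base before the start site, except that of Nr4a3, which ends where an annotated exon of another transcript begins. Nr4a1 is read from chr15:101266596-101266845 on the plus strand, Nr4a2 from chr2:57124004-57124253 on the minus strand and Nr4a3 from chr4:48045055-48045152 on the plus strand.
Nr4a1: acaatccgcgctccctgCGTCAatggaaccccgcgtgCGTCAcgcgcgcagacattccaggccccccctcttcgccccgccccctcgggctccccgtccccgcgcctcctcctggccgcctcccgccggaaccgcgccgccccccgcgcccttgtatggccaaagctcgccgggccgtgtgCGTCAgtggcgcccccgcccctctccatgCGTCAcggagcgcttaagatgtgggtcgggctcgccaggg
Nr4a2: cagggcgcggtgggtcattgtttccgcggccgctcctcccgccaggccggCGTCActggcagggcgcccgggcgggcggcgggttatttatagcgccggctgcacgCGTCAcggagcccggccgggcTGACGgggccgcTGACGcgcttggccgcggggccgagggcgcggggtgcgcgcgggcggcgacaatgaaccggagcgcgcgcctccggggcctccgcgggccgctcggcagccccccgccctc
Nr4a3: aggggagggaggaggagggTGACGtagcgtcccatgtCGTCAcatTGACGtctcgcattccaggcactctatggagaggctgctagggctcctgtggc

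The 250 bases upstream of the start site held 4 copies of TGACG in each of Nr4a1, Nr4a2 and Nr4a3, of which 3 lie in the stretch printed for Nr4a3. Of all 32851 promoters searched in the same way, 17.8% held at least 1 copy and 0.137% held 4 or more. The full palindrome TGACGTCA, which contains the core, was found in 1.55% of promoters and in none of the 6 members read. The Egr site GCGNGGGCG was present once each in Nr4a1 and Nr4a2 and in 4.70% of all promoters. The Nr4a site AAAGGTCA was found in 1.34% of promoters and in none of the 6 members. A match in this window describes its letters and does not show that a factor bound there. The promoters of Egr1, Egr3 and Ier2 were not read, so whether they hold any of the searched motifs was not examined.

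Egr2 has 5 RefSeq start sites, and 4 of their windows contain a CArG box, the element bound by serum response factor, against 1.47% of all promoters. The windows of 3 of the 4 overlap and hold the same box, so the boxes number 2. The window of 1 of these start sites is shown with the CArG box in capitals, from chr10:67537619-67537868 on the plus strand. It is shown because Egr2 was the only one with this box among the 6 members whose promoters were read.
Egr2: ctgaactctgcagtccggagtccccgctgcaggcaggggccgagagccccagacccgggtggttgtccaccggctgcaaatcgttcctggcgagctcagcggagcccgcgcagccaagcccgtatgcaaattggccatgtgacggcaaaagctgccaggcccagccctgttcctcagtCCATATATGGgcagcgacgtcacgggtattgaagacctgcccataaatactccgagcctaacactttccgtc
The same 3 overlapping windows also share 2 copies of TGACG. Egr4 held 2 copies of TGACG, and none of the searched motifs was found in the window of Ier5.

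The libraries held between 15814104 and 26092014 counts, and all 9 members passed the filter on low counts. Values are in CPM, a gene's count scaled to a library of fixed size, with library sizes adjusted by TMM factors, which correct for a few dominant genes. A count of 3, taken as the limit of detection, equals 0.116 to 0.192 CPM, and the lowest count of any member in any library was 13, for Egr4. The tissue label was checked against marker genes: neuronal, oligodendrocyte and astrocyte markers and the caudal Hox genes were present in every library, and the 5 forebrain markers summed to between 2.94 and 4.96 CPM. The libraries stood apart in peripheral nerve RNA. The summed Schwann cell markers were lowest in trained replicate 1, as given beside Egr2, although 1 of the 9, Gjb1, was highest there. Trained replicate 1 was the lowest of the 6 libraries for 5 of the 9 members (Nr4a1, Nr4a2, Egr1, Egr2 and Ier2), and untrained replicate 1 was the highest for 5 (Nr4a1, Nr4a3, Egr1, Egr2 and Egr3).

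**Figure D1:**
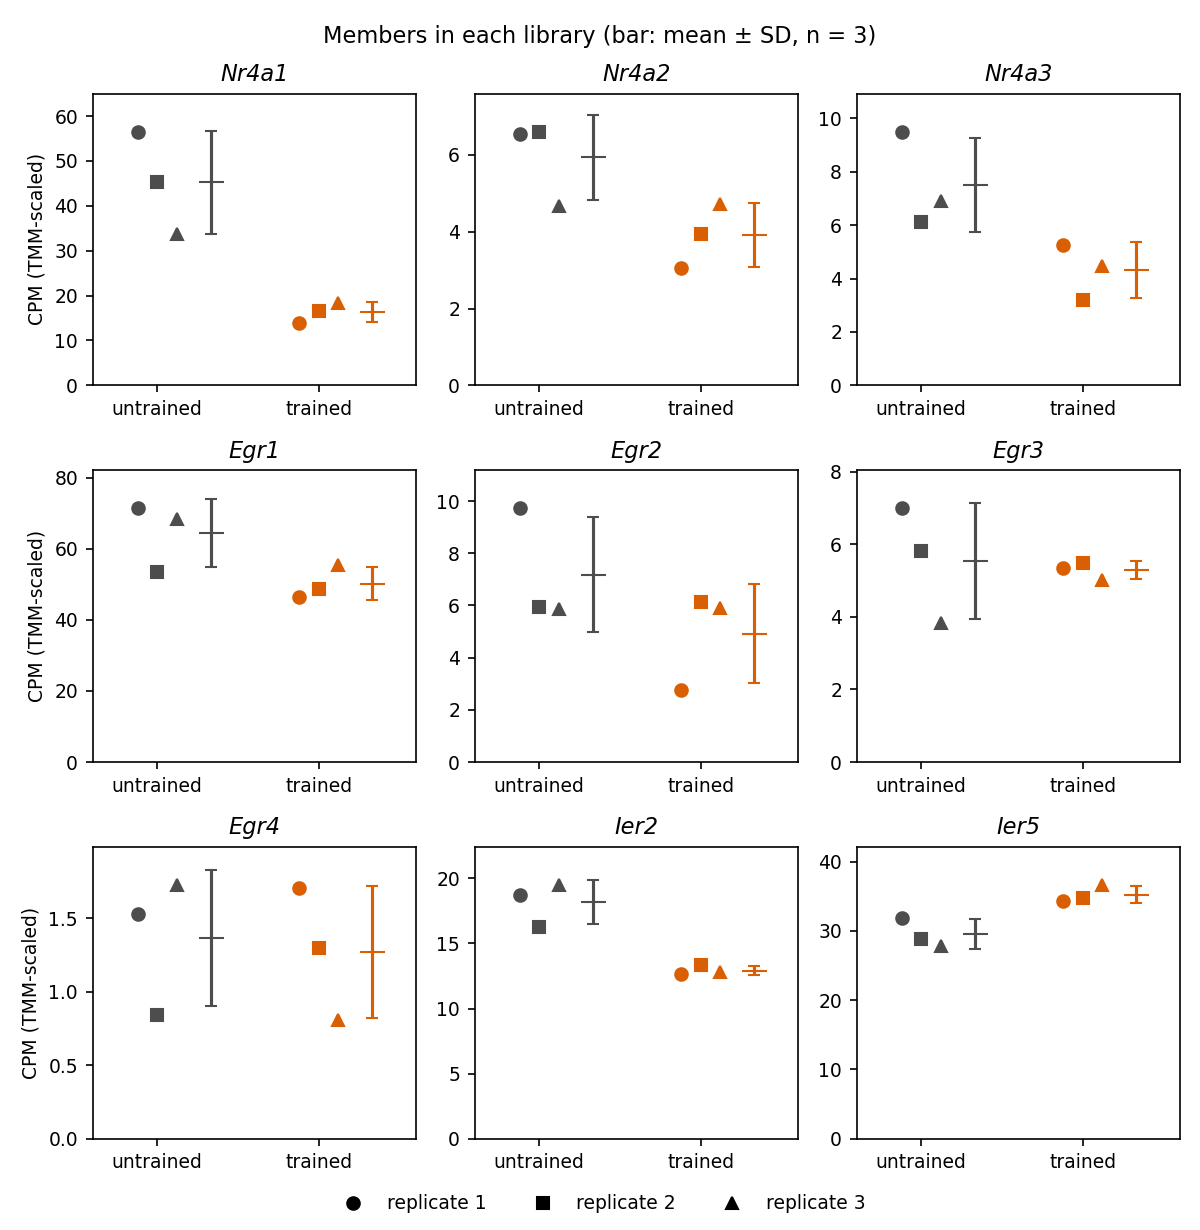
CPM of each of the 9 members in every library (y axes, each from 0) for untrained and trained cord (x axes), with marker shapes for replicates 1 to 3 and bars for the mean ± SD (n = 3). The groups do not overlap for Nr4a1, Nr4a3, Ier2 and Ier5, and Ier5 is the member whose trained values are the higher ones.

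Trained and untrained cord were compared to ask how rotarod training relates to gene expression after injury. None of the 9 members passed edgeR's quasi-likelihood test over all 16909 genes tested (0 at a Benjamini-Hochberg adjusted p under 0.05), where 0.0591% of all genes passed. At an unadjusted p under 0.05 there were 5 members lower in trained cord (Nr4a1, Nr4a2, Nr4a3, Egr1 and Ier2), against 5.55% of all genes, and 1 higher (Ier5), against 4.47%. DESeq2 and limma-voom each called 1 member, Nr4a1. The groups did not overlap in 4 of the 9 members, against 16.8% of all genes tested, with 3 members lower in trained cord (8.69% of all genes) and 1 higher (8.13%). The median log2 fold change (trained over untrained) was -0.49 over the members and -0.0080 over all genes tested, and 8 of the 9 values were negative. Of all genes tested, 48.0% had a positive value. The 9 genes were chosen with these results known, so the counts describe them and do not test them as a set. Without trained replicate 1, the library low in peripheral nerve RNA, edgeR called 0 members, and the fold changes of Nr4a1 and Ier2 were -1.37 and -0.48. In that setting 4 members did not overlap, but any gene does so more often with fewer libraries, and the share of all genes was not computed.

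Of the nuclear receptor genes, Nr4a1 stood furthest apart between the groups. Nr4a1 (ENSMUSG00000023034, chromosome 15, bases 101254269 to 101274795), a receptor gene induced by growth factors, calcium and inflammatory signals, had 14.0, 16.5 and 18.4 CPM in the trained libraries (replicates 1, 2 and 3, in this order throughout) and 56.5, 45.2 and 33.8 CPM in the untrained ones. Every untrained library lay well above every trained one, and the untrained libraries spread more widely. The log2 fold change was -1.48 ± 0.20 (SE), a 2.79-fold difference, with an adjusted p of 0.111 in edgeR, and it was larger in size than 99.8% of the values of all genes tested. Nr4a1 was past the threshold in 6 of 15 alternative fits, among them DESeq2 (adjusted p = 6.2e-15), limma-voom (0.0394) and edgeR without robust estimation of the spread (0.0203). It was also past it without the filter on low counts and in edgeR without untrained replicate 1 (adjusted p = 0.00656) or untrained replicate 3 (0.000580), and its adjusted p ranged from 4.19e-33 to 0.555 over all 15. Its direction was the same in each of the 15 fits.

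Nr4a3 (ENSMUSG00000028341, chromosome 4, bases 48045153 to 48086447), the receptor also called NOR-1, was at 5.27, 3.21 and 4.47 CPM in trained and 9.50, 6.13 and 6.90 CPM in untrained replicates 1, 2 and 3. The groups did not overlap, although trained replicate 1 came close to untrained replicate 2. Its log2 fold change was -0.79 ± 0.225 with an adjusted p of 0.277 in edgeR. Nr4a2 (ENSMUSG00000026826, chromosome 2, bases 57106830 to 57124003), known for its part in dopamine neurons of the midbrain, was at 3.06, 3.95 and 4.72 CPM in trained and 6.55, 6.61 and 4.66 CPM in untrained libraries. Trained replicate 3 and untrained replicate 3 met, so the groups overlapped, and the log2 fold change was -0.62 ± 0.22 (edgeR adjusted p = 0.377).

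Within the Nr4a family neither the total nor the share of Nr4a1 overlapped between the groups. Per length of gene, which allows levels of different genes to be compared, the family summed to 6.33 ± 0.779 CPM per kb in trained and 15.6 ± 3.69 CPM per kb in untrained cord (SD, n = 3 each). Nr4a1 made up 70.9%, 75.7% and 73.4% of that sum in the trained libraries and 83.4%, 82.9% and 80.7% in the untrained ones, without overlap. The log2 ratio of Nr4a1 to Nr4a2 within a library was 2.04 ± 0.106 in trained and 2.89 ± 0.175 in untrained cord, a difference of -0.85. An exact two-sided permutation test gave p = 0.10, which is the smallest that 3 against 3 libraries allow, and the adjusted value over the 10 pairs compared within families was 0.50. For Nr4a1 over Nr4a3 the difference was -0.66 (exact p = 0.20, adjusted 0.667), and for Nr4a2 over Nr4a3 it was 0.19 (exact p = 0.90, adjusted 1.0). Without trained replicate 1, whose Nr4a3 was the highest of its group, these 2 differences were -0.40 and 0.51.

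None of the 4 Egr genes separated the groups in CPM. Egr1 (ENSMUSG00000038418, chromosome 18, bases 34859823 to 34864984), the most widely used marker of recent cell activation in the family, was at 46.3, 48.8 and 55.5 CPM in trained and 71.4, 53.5 and 68.5 CPM in untrained replicates 1, 2 and 3. Untrained replicate 2 lay below trained replicate 3, and the other 2 untrained libraries lay above all trained ones. The log2 fold change was -0.36 ± 0.11 with an adjusted p of 0.324 in edgeR. Without untrained replicate 2 it was -0.48, and without untrained replicate 1 it was -0.27.

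Egr2 (ENSMUSG00000037868, chromosome 10, bases 67535475 to 67542188) is the transcription factor that drives myelination in Schwann cells, the myelinating cells of peripheral nerve and spinal roots. It was at 2.75, 6.11 and 5.90 CPM in trained and 9.72, 5.95 and 5.88 CPM in untrained libraries. Both groups held a pair of libraries near the same level, and the difference rested on trained replicate 1 at the low end and untrained replicate 1 at the high end. The log2 fold change was -0.57 ± 0.33 (edgeR adjusted p = 0.606), and -0.26 and -0.28 without trained replicate 1 and without untrained replicate 1. The 9 Schwann cell markers summed to 342 CPM in trained replicate 1, against 982 to 1557 CPM in the other 5 libraries, and none of the 9 was at 0 throughout. In untrained replicate 1, where Egr2 was highest, they summed to 1283 CPM, below trained replicate 2 and untrained replicate 2. Per 100 CPM of the Schwann cell markers Egr2 was at 0.804, 0.393 and 0.599 in trained and 0.758, 0.419 and 0.599 in untrained libraries, where the groups overlap in full. Summed border macrophage markers were lowest in trained replicate 1 (6.35 CPM) and highest in untrained replicate 1 (22.9 CPM). The microglial, endothelial and pericyte sums had the same extremes, and the neuron and astrocyte sums did not. Which cells the Egr2 RNA came from was not tested. Fewer cells of a type and less RNA per cell cannot be told apart in such bulk samples.

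Egr3 (ENSMUSG00000033730, chromosome 14, bases 70077203 to 70082614), needed for muscle spindle development and responsive to neuronal activity, was at 5.34, 5.50 and 5.03 CPM in trained libraries. In untrained libraries it was at 6.99, 5.83 and 3.83 CPM, values that lie on both sides of the trained ones. Its log2 fold change was -0.074 ± 0.22 (edgeR adjusted p = 0.942), and it turned to 0.14 without untrained replicate 1. Egr4 (ENSMUSG00000071341, chromosome 6, bases 85511121 to 85513589), the Egr gene with the lowest level, had 13 to 44 counts per library. It was at 1.70, 1.30 and 0.807 CPM in trained and 1.53, 0.841 and 1.73 CPM in untrained libraries, with a log2 fold change of -0.076 ± 0.38 (edgeR adjusted p = 0.967). A change of the size seen for Egr1 would not have been detectable for Egr4 at this depth, since its standard error is of that size. The fold change of Egr4 turned positive with any of 3 libraries left out: trained replicate 3 (0.17), untrained replicate 1 (0.028) and the third untrained one (0.12).

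The shares of each Egr gene in its family overlapped between the groups. Egr1 made up 77.5% ± 2.33 of the summed CPM per kb in trained and 78.3% ± 3.20 in untrained cord. None of the 6 pairs of Egr genes had ratios that separated the groups, and their exact permutation p-values lay between 0.30 and 1.0. The family summed to 14.4 ± 1.24 CPM per kb in trained and 18.4 ± 2.86 CPM per kb in untrained cord.

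Ier2 and Ier5 lay on opposite sides. Ier2 (ENSMUSG00000053560, chromosome 8, bases 84661331 to 84662852), a single-exon gene induced by serum and growth factors, was at 12.6, 13.3 and 12.8 CPM in trained and 18.7, 16.3 and 19.5 CPM in untrained libraries. The trained values lay close together, with a coefficient of variation of 2.91%, and all lay below the untrained ones. The log2 fold change was -0.49 ± 0.12 with an adjusted p of 0.209 in edgeR. Ier5 (ENSMUSG00000056708, chromosome 1, bases 155096361 to 155099636), also a single exon and known as a partner of the heat shock factor Hsf1, was at 34.3, 34.8 and 36.6 CPM in trained and 31.9, 28.8 and 27.9 CPM in untrained libraries. Every trained library was above every untrained one, and the log2 fold change was 0.25 ± 0.086 (edgeR adjusted p = 0.365). The log2 ratio of Ier2 to Ier5 was -1.44 ± 0.0678 in trained and -0.70 ± 0.164 in untrained cord, a difference of -0.74 without overlap (exact two-sided permutation p = 0.10, adjusted 0.50 over the 10 pairs). Because each gene alone was apart, in opposite directions, this ratio had to separate and its exact p had to be the smallest possible. The ratio therefore adds no result beyond those of the single genes. Ier5l, the closest relative of Ier5, was named after its values were seen: it was at 19.4, 20.4 and 20.5 CPM in trained and 18.6, 12.1 and 13.8 CPM in untrained libraries (log2 fold change 0.44 ± 0.15, edgeR adjusted p = 0.354).

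**Figure D2:**
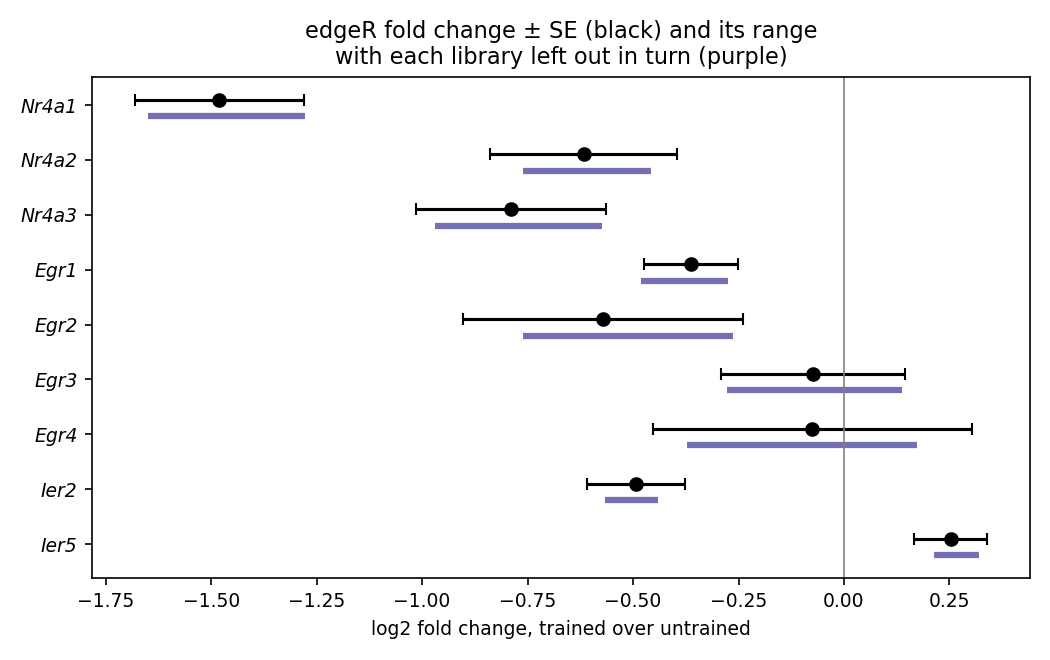
Log2 fold change of each member, trained over untrained (x axis), from edgeR as a point with its SE, and below it the range of the same value with each library left out in turn. Nr4a1 lies between -1.65 and -1.28 in those fits, Ier5 between 0.21 and 0.32, and the ranges of Egr3 and Egr4 cross 0.

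Summed endothelial and neutrophil markers were apart between the groups, as were some of these genes, while the sums of all other marker lists overlapped. The 6 endothelial markers summed to 317 to 376 CPM in trained and 378 to 448 CPM in untrained libraries, without overlap, and the 5 neutrophil markers to 29.6 to 61.3 and 14.1 to 21.5 CPM. The endothelial gap was narrow, and no endothelial or neutrophil marker was at 0 in all libraries. Singly, 2 of the 6 endothelial and all 5 neutrophil markers did not overlap, against 16.8% of all genes tested. None of these markers passed edgeR's test. Per 100 CPM of the endothelial sum, Nr4a1 was at 4.39 to 5.42 in trained and 8.93 to 12.6 in untrained cord, and Ier2 at 3.55 to 3.99 and 4.18 to 5.15, still without overlap. Ier5 was at 9.25 to 10.8 in trained and 7.12 to 7.52 in untrained cord, also without overlap. On the same scale Nr4a3 overlapped, at 0.854 to 1.66 and 1.598 to 2.12, and Egr1 was at 12.98 to 16.3 and 13.9 to 18.1. The 5 microglial markers summed to 448 to 558 CPM in trained and 514 to 624 CPM in untrained libraries, and the groups overlapped. Per 100 CPM of the microglial sum, Nr4a1 was at 3.12 to 3.41 in trained and 5.92 to 9.06 in untrained cord, and Nr4a3, Egr1, Ier2 and Ier5 did not overlap either. Nr4a3 was at 0.664 to 1.17 and 1.19 to 1.52 on that scale, and Egr1 at 9.95 to 10.3 and 10.4 to 11.99, each a narrow gap. Per 100 CPM of the Schwann cell sum all 9 members overlapped, with Nr4a1 at 1.06 to 4.09 and 3.19 to 4.41. That sum ran from 342 to 1557 CPM within the trained group, and trained replicate 1 gave the highest trained ratio for every member. Division by a sum so uneven within 1 group makes overlap likely for any gene, so this scale cannot decide whether a member separates the groups. Whether Nr4a3 and Egr1 separated the groups thus differed between the endothelial and microglial sums. Nr4a1, Ier2 and Ier5 were apart on both of these scales and overlapped on the Schwann cell sum. The share of all genes that did not overlap after such a division was not computed, so the members on these scales have no background. The 5 red blood cell genes summed to 61.1 to 145 CPM in trained and 36.6 to 67.8 CPM in untrained libraries. The part of neutrophil and blood RNA in these differences was not tested.

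Levels were compared between members per kb of gene length. Egr1 stood first at 12.8 ± 2.31 CPM per kb over the 6 libraries (SD), and it was above Ier2, at 10.2 ± 2.02, in all 6. Over both groups together Ier2, Ier5 (9.88 ± 1.06) and Nr4a1 (8.76 ± 4.97) did not differ beyond their spread, which includes the difference between the groups. The order changed by group: Ier5 was above Ier2 and Nr4a1 in every trained library and below both in every untrained one. Nr4a1 covered the widest range, from 3.98 to 16.1. In untrained replicates 1 and 2 Nr4a1 was above Egr1, at 16.1 against 15.9 and 12.9 against 11.9 CPM per kb, and in the other 4 libraries it was below. A gap followed to Egr2 at 1.78 ± 0.651, Egr3 at 1.23 ± 0.234, Nr4a2 at 1.21 ± 0.349 and Nr4a3 at 0.988 ± 0.364, of which no neighbours in the order differed beyond their spread. Egr4 was the lowest at 0.613 ± 0.192 CPM per kb, and below Nr4a3 in 5 of 6 libraries.

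**Figure D3:**
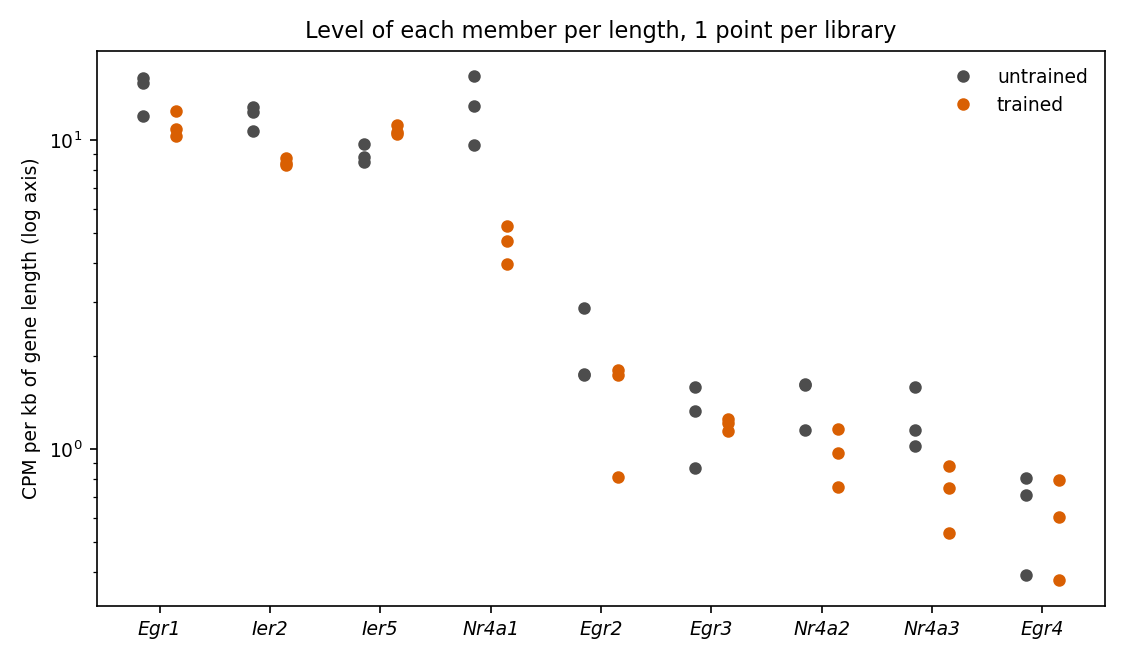
CPM per kb of gene length (log axis) of each member, ordered by its mean over all libraries, with 1 point per library for untrained and trained cord. Egr1, Ier2, Ier5 and Nr4a1 form an upper tier, and Nr4a1 is the member of that tier whose trained points, 3.98 to 5.25, fall clearly below it.

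The pathway around the members was read from 6 lists with 95 genes, all of which were tested. In edgeR's test over all genes 4 of them fell (Dusp1, Btg2, Sik1 and Klf4), where 0.0532% of all genes fell. In the same test 1 rose (Arc), where 0.00591% of all genes rose. The lists were written with earlier results of these data known, so their counts describe them and do not test them as sets. Among 39 other early response genes of many cell types, 4 fell and 35 did not pass. The median log2 fold change was -0.39, and 30 values were negative, where 48.0% of all genes tested were positive. At an unadjusted p under 0.05 there were 20 lower and 2 higher, against 5.55% and 4.47% of all genes. Dusp1, a phosphatase that switches off MAP kinases, was at -1.43 ± 0.11 (edgeR adjusted p = 0.000149), close in size to Nr4a1 but with a smaller SE. It was at 25.1, 23.3 and 25.3 CPM in trained and 69.8, 54.6 and 73.9 CPM in untrained replicates 1, 2 and 3, so that both groups were tight and far apart. Btg2, a gene that restrains cell division, was at -1.38 ± 0.11 (adjusted p = 0.000149), Klf4 at -1.44 ± 0.17 and Sik1, a kinase gene induced by cyclic AMP, at -0.98 ± 0.13 (both 0.00968). Without trained replicate 2 the pathway calls numbered 2, since Sik1, Klf4 and Arc each had an edgeR adjusted p of 0.119, and without trained replicate 3 they numbered 12.

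Among 14 neuronal activity-regulated genes 1 rose and 13 did not pass. The median log2 fold change was 0.10, and 10 values were positive, against 48.0% of all genes tested. At an unadjusted p under 0.05 there were 4 higher (Arc, Npas4, Vgf and Pcsk1), against 4.47% of all genes, and 1 lower (Plk2), against 5.55%. All of these but Arc were named after their values were seen. Npas4 was at 0.93 ± 0.35, Vgf at 0.29 ± 0.087, Pcsk1 at 0.22 ± 0.10 and Plk2 at -0.26 ± 0.098, with edgeR adjusted p-values from 0.316 to 0.497. Arc, whose protein acts at the postsynapse, was at 0.76 ± 0.10 (edgeR adjusted p = 0.00968). Arc was at 37.6, 39.2 and 33.5 CPM in trained and 19.6, 23.3 and 22.4 CPM in untrained libraries, every trained value above every untrained one. Egr3 and Egr4, which neurons also induce with activity, had values near 0 in the same comparison.

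None of the 26 kinases, factors and coactivators that act on early gene promoters passed edgeR's test (0 called, median log2 fold change -0.042). At an unadjusted p under 0.05 there were 5 lower, against 5.55% of all genes, and 0 higher, against 4.47%. The smallest p-values belonged to Rps6ka3, a kinase of the ribosomal S6 family that phosphorylates CREB, at -0.26 ± 0.090, Elk1, a partner of serum response factor, at -0.26 ± 0.10, and Creb1 itself at -0.19 ± 0.077. Their adjusted p-values in edgeR were 0.363, 0.437 and 0.446.

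Partners of the members were read on both sides of 0. Of 4 Nr4a partners none passed edgeR's test (0 called, 1 at an unadjusted p under 0.05). Rxra and Rxrg, retinoid X receptors with which Nr4a1 and Nr4a2 form heterodimers, were at -0.15 ± 0.067 and 0.31 ± 0.17, and the corepressor gene Rcor1 was at -0.13 ± 0.10. The value of Rcor1 was -0.042 without untrained replicate 1. Nab1 and Nab2, which bind Egr proteins and repress their targets, were at -0.11 ± 0.070 and 0.39 ± 0.22 (0 of 2 called by edgeR, and 0 at an unadjusted p under 0.05). Nab2 rested on trained replicate 3, at 19.4 CPM against 8.95 to 12.5 CPM in the other 5 libraries, and its value was 0.11 without it. Of 10 heat shock genes driven by Hsf1, the factor Ier5 acts on, none passed (0 called by edgeR, 1 at an unadjusted p under 0.05), with a median of 0.013. Hspa1a was at 0.36 ± 0.17, its near-identical copy Hspa1b at 0.11 ± 0.21, and Hspd1 at -0.16 ± 0.075, and reads of the first 2 may have been split between them. The value of Hspa1b was 0.0029 without trained replicate 1 and 0.011 without untrained replicate 2.

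**Figure D4:**
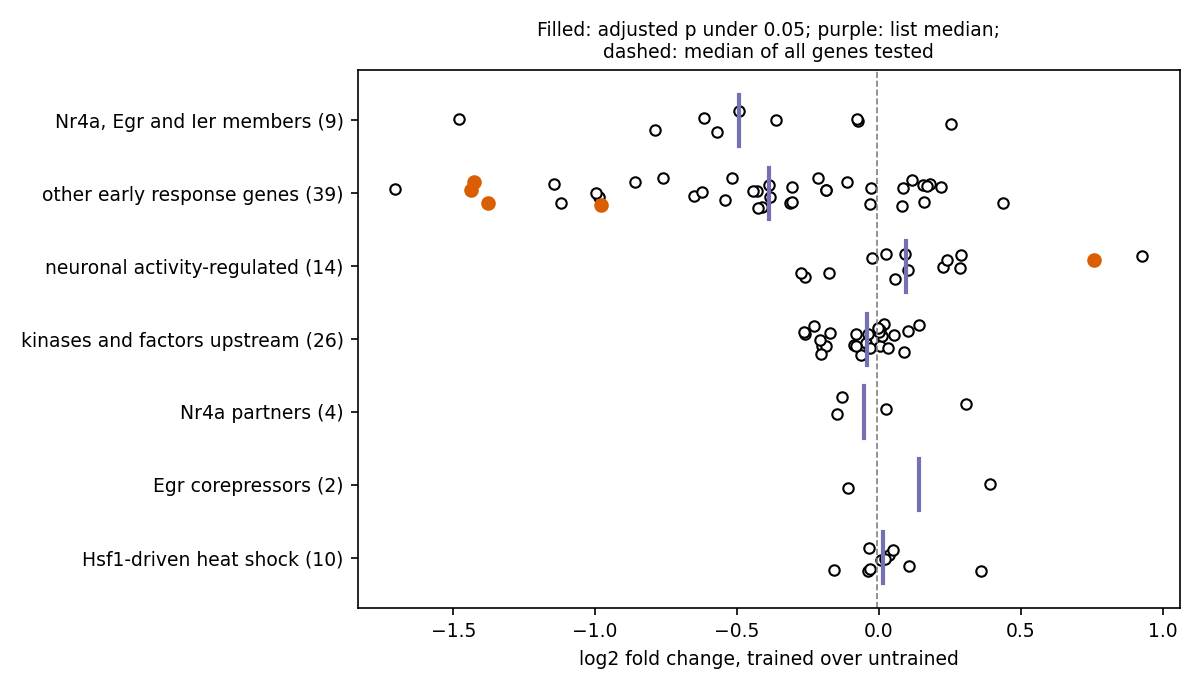
Log2 fold change, trained over untrained (x axis), of each gene of the members and of 6 pathway lists (rows, number of genes in brackets), with filled points for an adjusted p under 0.05, a bar for the list median and a dashed line for the median of all genes tested. The members and the other early response genes have medians of -0.49 and -0.39, and the medians of the other lists lie between -0.05 and 0.14.

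The genes most like a member were sought by the root mean square difference of log2 CPM, centred on the mean over the 6 libraries, among 16900 other genes, for the 5 members whose log2 CPM spanned at least 1. With so many genes and 6 libraries, close matches arise in any case, and the measure is a description. Nr4a1 was closest to Klf4, a zinc-finger factor, at 0.126, followed by Sgk1, a kinase gene induced by glucocorticoids (0.208), the forkhead gene Foxf1 (0.236), Btg2 (0.242) and Maff, a small Maf factor (0.256). Klf4 was at 8.60, 10.8 and 10.5 CPM in trained and 34.4, 23.4 and 22.7 CPM in untrained libraries, with untrained replicate 1 at the top as for Nr4a1. Of these 5 genes, Klf4 and Btg2 passed edgeR's test (adjusted p = 0.00968 and 0.000149).

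Among the 5 genes nearest to Egr2 were Il1r1, the interleukin 1 receptor gene (0.1225), Agtr1a, an angiotensin receptor gene (0.126), Fancd2 (0.129) and Olfr1033 (0.140). Nr4a2 was closest to Dram1 (0.0539), Gpc6 (0.0659), the Notch target Hes1 (0.0943), Gcnt2 (0.0999) and Gm33378 (0.1003). For Nr4a3 the nearest were Gm16794 (0.103), Gm10819 (0.154), Kcnmb1 (0.155), 1810062O18Rik (0.156) and Ttc29 (0.161). The nearest genes of Egr4 were Rec114, Ect2l, Slc4a9, Rsph4a and Fancb, at 0.1125 to 0.168. None of the 20 genes nearest to Nr4a2, Nr4a3, Egr2 and Egr4 passed edgeR's test, with adjusted p-values from 0.272 to 0.999.

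**Figure D5:**
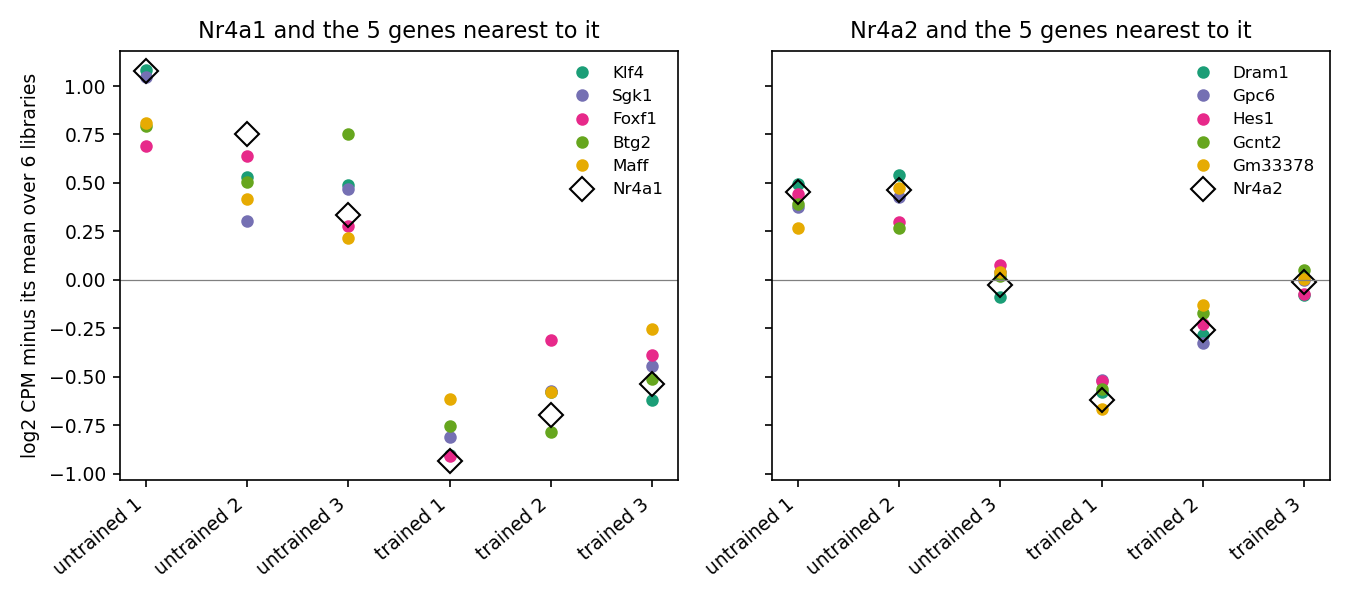
Log2 CPM minus its mean over the 6 libraries (y axis) in each library (x axis) for Nr4a1 and for Nr4a2 (open diamonds), each with the 5 genes nearest to it (coloured points). Around Nr4a1 the 3 untrained libraries lie above 0 and the 3 trained ones below, and around Nr4a2 untrained replicates 1 and 2 lie above 0 and trained replicate 1 lies lowest.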

How the data were processed

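RNA of 6 spinal cord libraries was sequenced as paired-end reads, per the labels' protocols. The values are raw counts for each Ensembl gene in 1 table that the authors deposited with gene coordinates and lengths. Bowtie 0.12.2 and the mouse builds mm9 and mm8 appear, without a role, in the submitters' processing notes. The sources used here give neither the counter nor whether it used strand. The deposited coordinates of all 9 members equal those of GENCODE M21 (GRCm38), and no other gene of the table overlaps them. Groups follow the sample titles.

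The test was that of edgeR 4.0.16 under R 4.3.3 (TMM, filterByExpr, robust quasi-likelihood fit, group as the only term), with Benjamini-Hochberg adjustment over 16909 genes. The biological coefficient of variation was 0.122. The SE is the size of the log2 fold change divided by the root of the F statistic. The fit was tested on simulated data. Log2 CPM used a prior count of 2. Ratios were tested by exact permutation (scipy 1.17.1).

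Alternatives were other scalings, DESeq2 1.42.0, limma-voom (limma 3.58.1), no robust step, other filters, a replicate block, another threshold, a prior count of 0.5 for the ratios, and leaving out each library. Division by summed markers was added after the data were seen. The members, the lists and the rule for named genes were chosen with earlier results of these data known. That rule took all members, the list genes past the test or otherwise the 3 of smallest p, and the 5 nearest genes. A gene near Egr2 and some marker genes are not reported here.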

Additional observations from a re-analysis of the deposited data

How the results depend on the processing

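The direction of Nr4a1, Nr4a2, Nr4a3, Egr1, Egr2, Ier2 and Ier5 was the same under all 15 alternative fits, while the call depended on the model. Against 0 members past edgeR's test, DESeq2, limma-voom and edgeR without robust estimation each gave 1 (Nr4a1), and edgeR without the low-count filter gave 4 (Nr4a1, Nr4a3, Egr1 and Ier2). Leaving out 1 library at a time gave 0 to 1, with Nr4a1 called without untrained replicate 1 or without untrained replicate 3. Against 10 genes of the whole table, DESeq2 called 92, edgeR without the filter 276 and an adjusted p under 0.10 gave 18. Leaving out 1 library gave 4 to 221 genes, with 21 without trained replicate 1, 4 without trained replicate 2 and 221 without trained replicate 3. Against 5 pathway genes, DESeq2 called 15 and edgeR without the filter 16, and leaving out 1 library gave 2 to 12. The members whose groups did not overlap numbered 4 to 6 with 1 library left out, against 4. With fewer libraries any gene fails to overlap more often, and the share of all genes was not computed there. These counts therefore cannot be set against the 4.

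Replicate numbers recur in both groups but did not pair the libraries: deviations from the group means correlated at -0.18, -0.091 and -0.13 for the same number, and no library correlated best with its own number. With the replicate block edgeR called 5 genes of the whole table, 0 members and 3 pathway genes, where Klf4 and Arc had adjusted p-values of 0.135 and 0.0635.

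With 1 library left out, the fold change of Egr3 ranged from -0.28 to 0.14 and that of Egr4 from -0.37 to 0.17. Among ratios, the difference ranged from -0.018 to 0.51 for Nr4a2 over Nr4a3, from -0.083 to 0.44 for Egr1 over Egr2, from -0.60 to 0.025 for Egr1 over Egr4, from -0.92 to 0.11 for Egr2 over Egr4 and from -0.36 to 0.41 for Egr3 over Egr4. Among the genes nearest to Egr4 the range was -0.41 to 0.082 for Rec114, -0.39 to 0.080 for Ect2l, -0.37 to 0.032 for Slc4a9, -0.38 to 0.027 for Rsph4a and -0.26 to 0.25 for Fancb. Fancb, at -0.0021, turned to 0.0016 with RLE, 0.020 with upper-quartile and 0.0011 with total-count scaling, 0.057 with limma-voom, 0.0056 without the filter and 0.0055 with the block. The cause of these reversals was not tested. Depth limits Egr4 most, with 13 to 44 counts per library.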
